A study of Mus musculus with 7 samples.

Results

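Genes that encode the integrin adhesion and actomyosin machinery of the cell were examined in the m6A MeRIP-Seq peaks of injured muscle and of C2C12 myoblasts. The set was chosen by function and takes in 59 genes, out of 21900 protein-coding ones in the mouse RefSeq annotation. Its members were looked up in both deposited peak tables, by symbol in muscle and by RefSeq transcript or symbol in C2C12, older symbols included. In m6A MeRIP-Seq, fragments of mRNA that carry N6-methyladenosine (m6A) are pulled down with an antibody and sequenced. The starting mRNA fragments are sequenced too, as the input, and a peak is a stretch enriched in the pulled-down sample (IP) over its input. The muscle table was made from 4 libraries of C57BL/6 mice, taken at day 2 after injury of the tibialis anterior with cardiotoxin (CTX). They were 1 IP and 1 input library from METTL3 conditional knockout (cKO) mice, Pax7CreERT2 with METTL3 flox/flox, and 1 of each from control mice, Pax7CreERT2 with METTL3 wt/wt. Tamoxifen had been given to the mice before the injury. The Cre recombinase of this model acts in Pax7-expressing cells, so other cells of the muscle keep the METTL3 gene. METTL3 is the catalytic subunit of the m6A writer complex. The C2C12 list was made from 2 IP libraries and 1 input library of this mouse myoblast line. The labels give the C2C12 IP libraries the genotype "Knockout" and the input "Normal", and the paper's text describes no knockout for this experiment. It does report METTL3 knockdown by shRNA in C2C12 cells, without saying whether the sequenced cells carried it. The state of METTL3 in these cells was not tested. The labels also mention differentiation in horse serum and do not say whether these cells had been differentiated.

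Integrins are paired alpha and beta receptors that bind the extracellular matrix outside the cell. Inside the cell their tails are tied to actin filaments through talin, vinculin, paxillin and other proteins of the focal adhesion, and myosin motors pull on those filaments. In muscle, the same machinery holds the satellite cell, the stem cell of the tissue, in its niche under the basal lamina, carries myoblasts as they migrate and fuse, and joins the myofibre to its matrix. The m6A mark is placed on adenosine within short motifs, of which GGAC is the best known, and in most mRNAs it is concentrated around the stop codon and in long internal exons.

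What the tables hold sets what can be compared. The muscle table keeps peaks that had passed the authors' test between the genotypes, with 1 fold enrichment of IP over input per peak and no value per library. A gene missing from it may still have been methylated. The fold enrichment, a ratio, is compared here between peaks and not between genotypes. With 1 library of each kind per genotype there was no replicate and no test, and no expression value or read count was available, so the depth is unknown and the loss of Mettl3 was not checked. The C2C12 list gives positions and annotation with no peak values. Of 7 satellite cell and myoblast markers, 4 were listed in muscle and 4 in C2C12, with Pax7, Myod1 and Des in both. The muscle table also listed 1 of 7 myofibre markers (Ttn), 2 of 7 leukocyte markers (Ptprc and Itgam), 1 of 5 endothelial markers (Cdh5) and 2 of 5 markers of fibroadipogenic progenitors (Pdgfra and Col1a1). The C2C12 list held none of the myofibre, leukocyte and endothelial markers and 3 of the 5 fibroadipogenic ones. Of all protein-coding genes, 16.9% were listed in muscle and 17.6% in C2C12, so counts this small do not tell which cell types gave the peaks. A muscle peak may come from a cell type other than the muscle stem cell named in the labels, and this was not tested.

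Of the 59 genes, 33 (55.9%) had a muscle peak, where 16.9% of all protein-coding genes did. In C2C12 the count was 35 (59.3%), against 17.6% of all protein-coding genes. Both tables listed 24 of the genes (40.7%), against 7.32%. Of the members with a muscle peak 72.7% were also listed in C2C12, and of those listed in C2C12 68.6% had a muscle peak. Over all protein-coding genes these shares were 43.2% and 41.4%. The background includes genes that muscle does not express, since expression was not available here.

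The members were long genes, and long genes were listed more often. Their median length from start to end was 77689 bases, against 17146 for all protein-coding genes, and 39 of the 59 fell into the longest of 5 equal groups of genes ranked by length. In that group 25 of 39 members (64.1%) had a muscle peak, against 25.8% of all its genes, and 24 of 39 (61.5%) had a C2C12 peak, against 21.4%. Among the genes next in length, 4 of 13 members were listed in muscle (30.8%), against 20.8%, and 6 of 13 in C2C12 (46.2%), against 20.5%. Weighted to the members' lengths, the share of all protein-coding genes listed was 23.6% in muscle and 20.9% in C2C12. Within the set, the 15 members in neither table were nonetheless not shorter than the 24 listed in both. Their median length was 124712 bases, against 98423. Members listed in a single table were not part of this comparison.

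**Figure D1:**
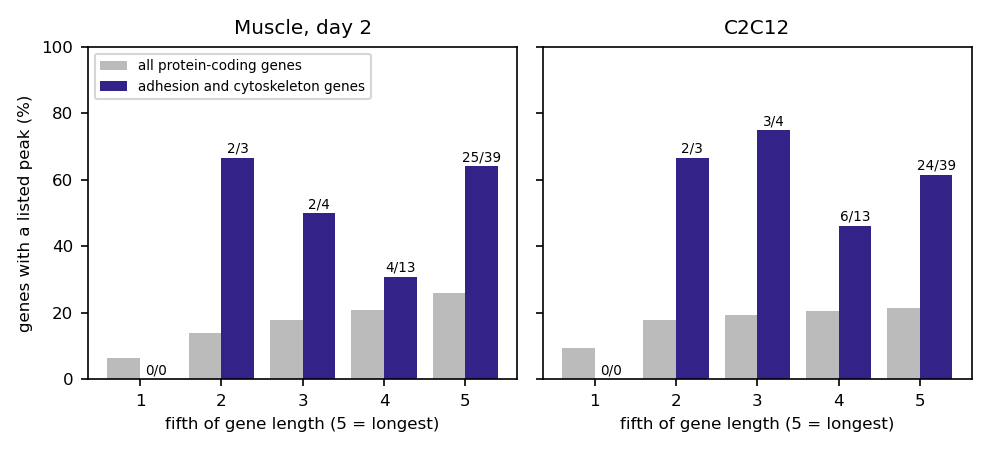
The share of genes with a listed peak (y axis, percent) is plotted by gene length (x axis, 5 equal groups of genes, 5 being the longest) for all protein-coding genes (grey) and for the adhesion and cytoskeleton genes (dark bars, with listed over total members above each), in muscle and in C2C12. In the longest group, 25 of 39 members were listed in muscle and 24 of 39 in C2C12, and the shortest group holds no member.

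Over all protein-coding genes, the shares listed were 16.9% in muscle, 17.6% in C2C12 and 7.32% in both. By role, the genes that crosslink actin or tie it to other filaments had the highest share listed in both tables. Of these 12 genes, 9 had a peak in both tables, and Lasp1, an adaptor on actin filaments, had one in muscle alone. Sptan1, a spectrin, and Palld, which bundles actin, were in neither. Focal adhesion adaptors and kinases were listed for 10 of 12 genes in C2C12 and for 6 of 12 in muscle. Talin, which activates integrins, was listed for both of its genes, Tln1 and Tln2, in C2C12 and for neither in muscle. The focal adhesion kinase gene Ptk2, its substrate Bcar1 and the adhesion sensor Zyx were likewise listed in C2C12 alone, whereas Ilk, the integrin-linked kinase, was listed in muscle alone, and Parva, its partner, in neither. The integrins divided evenly. Itga1, Itga6 and Itgb5 were in both tables, Itga4, Itga7 and Itgav in muscle alone, Itga3, Itga5 and Itgb1 in C2C12 alone, and Itga9, Itgb3 and Itgb4 in neither. Itga7 and Itgb1 encode the chains of the laminin receptor of muscle, and each was listed in 1 table, not the same one. Among the myosins, Myh9, Myo9a, Myo9b and Myo10 were in both tables, the membrane motor Myo1c and the cargo motor Myo5a in muscle alone, and Myh10, Myo1e and Myo6 in neither. Actin assembly was the role with the most unlisted genes, 6 of 12: Cttn, Daam1, Fmnl3, Wasl, Enah and Limk1. Even so, 4 of the 12 (33.3%) were listed in muscle and 4 (33.3%) in C2C12, both above the share of all protein-coding genes. Of the linkers between actin and the cell membrane, Ezr was in both tables and Msn in C2C12 alone.

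**Figure D2:**
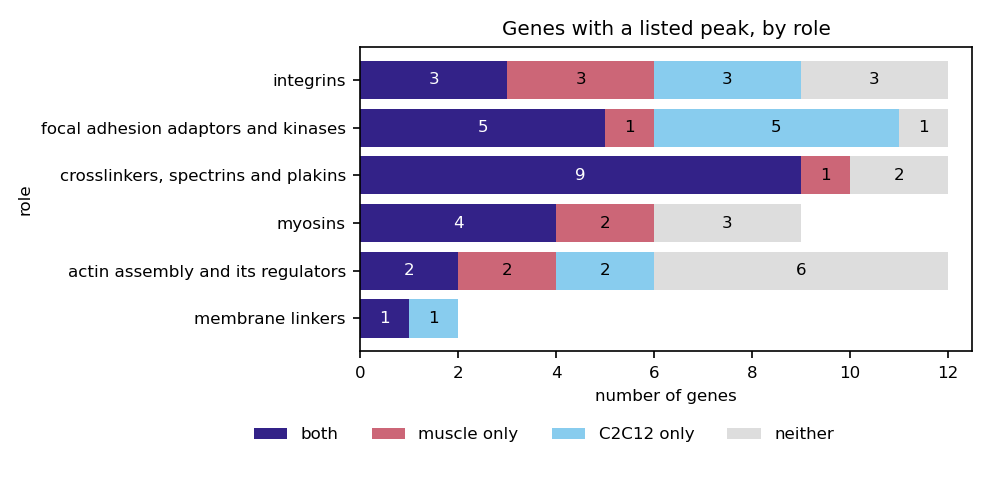
The number of genes (x axis) with a listed peak in both tables, in muscle only, in C2C12 only or in neither is stacked for each role (y axis). Of the 12 crosslinkers, spectrins and plakins 9 were in both tables, and of the 12 genes of actin assembly 6 were in neither.

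The 33 genes listed in muscle had 62 of the table's 5412 peaks. Taking the strongest peak of each gene, the median fold enrichment was 12.7 over the members (quartiles 6.39 and 32.4, n = 33) and 19.3 over all 3983 listed genes (quartiles 6.85 and 75.9). In 4 of the 33 members (12.1%) the strongest peak reached the upper quartile of all genes, where 25% of all genes do. These were Myo9b, Itga4, Cdc42ep1 and Itga6. More members than genes at large had several peaks, 15 of 33 (45.5%) against 25%. These shares were not matched for gene length, and the members were long genes. Within the 15 members with several peaks the strongest peak exceeded the weakest by a median of 5.77-fold, against 4.21-fold over all such genes. This ratio can only grow or stay the same as peaks are added, and the number of peaks was not matched.

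**Figure D3:**
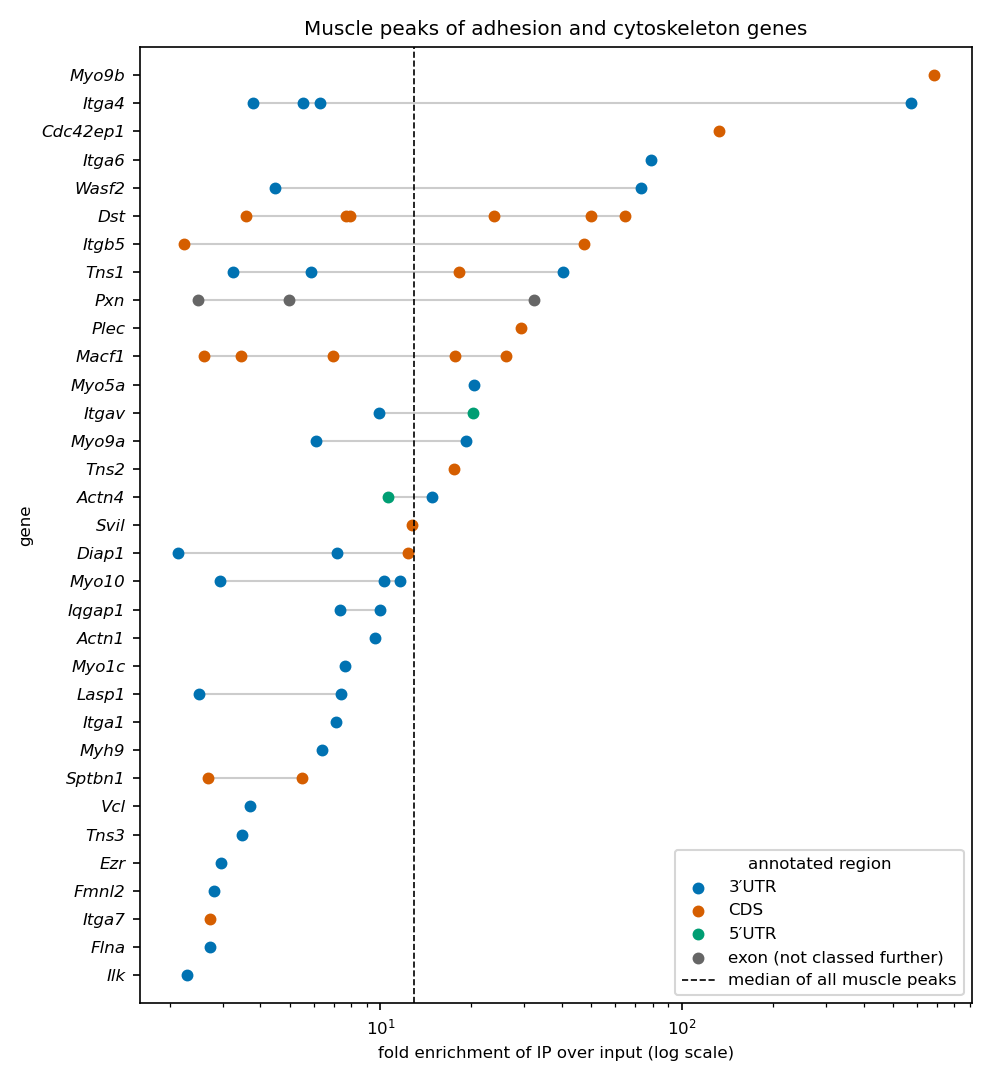
Each point is 1 muscle peak of a gene (y axis), placed at its fold enrichment of IP over input (x axis, log scale) and coloured by annotated region, and a grey line joins the peaks of a gene. The dashed line marks the median of all muscle peaks, 12.9. Myo9b at 686 and the strongest Itga4 peak at 574 stand apart from the other members, and 17 of the 33 genes have all of their peaks under the dashed line.

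Itga4 encodes the alpha4 chain, which with beta1 binds fibronectin and VCAM1 on other cells. It had 4 peaks in the muscle table, all in the 3′UTR. The strongest covered 1711 exonic bases of chromosome 2 from 79325579 to 79328114 at a fold enrichment of 574, the 92nd highest value of all peaks, and held 3 listed GGAC sites. The other 3 peaks, further along the same 3′UTR, had values of 3.79, 6.30 and 5.55 and no listed GGAC site. The highest value exceeded the lowest by 151-fold, the widest range within any member. Alpha4 is carried by leukocytes as well as by other cells. Of 7 leukocyte markers 2 (28.6%), Ptprc and Itgam, were listed in muscle, against 16.9% of all protein-coding genes. The part of leukocytes in the Itga4 peak was not tested. C2C12 had no listed Itga4 peak.

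Itga6, the laminin-binding alpha6 chain, had a single muscle peak at 79.1, which lay in the 3′UTR between 71854906 and 71857427 of chromosome 2. It held 5 GGAC sites, and the C2C12 peak of Itga6 was in the 3′UTR as well. Itgb5, the beta5 chain that pairs with alphaV, had CDS peaks at 47.3 and 2.23 in muscle and both a 5′UTR peak and 2 coding exon peaks in C2C12. Itgav, the alphaV chain itself, had a 5′UTR peak at 20.3 and a 3′UTR peak at 9.90. Itga1, a collagen receptor chain, had a 3′UTR peak at 7.14. The lowest integrin was Itga7, with a CDS peak at 2.73, 151 bases long and without a GGAC site. Over the 6 integrins listed in muscle the median of the strongest peaks was 33.8, in a range from 2.73 to 574.

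Among the adaptors and kinases, the tensins stood first by number. Tensins join the tails of beta integrins to actin, and Tns1, Tns2 and Tns3 were each listed in both tables. Tns1 had 4 muscle peaks. Those in the 3′UTR had fold enrichments of 40.4, 5.90 and 3.24, and a CDS peak split over 5 exon blocks had a value of 18.2. Tns2 had a CDS peak at 17.5, also over 5 blocks, and Tns3 a 3′UTR peak at 3.47. In C2C12 the order by covered length was another one, with Tns3 at 1428 bases in 4 peaks (rank 112 of 3970 genes), Tns1 at 1276 bases in 3 peaks (rank 148) and Tns2 at 586 bases in 1 peak. Pxn, the scaffold paxillin, had 3 muscle peaks at 32.4, 4.96 and 2.48. All 3 were annotated only as exon, the class the table gives to a region it does not divide into CDS and UTR, and the C2C12 peak of Pxn was placed in the 3′UTR.

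The muscle values of Vcl and Ilk, both low, may not belong to these genes alone. Vcl, which encodes vinculin, the clutch between talin and actin, had a 3′UTR peak at 3.68 that overlapped a listed peak of Ap3m1 on the opposite strand. The Ilk peak, at 2.28 the lowest strongest peak of any member and with a p-value of 0.00085 the least certain of the 62, overlapped a listed peak of Taf10, also on the opposite strand. How the authors' peak calling treated strand is not given in the sources used here, so the reads of both genes in each pair cannot be told apart, and the muscle peaks of Vcl and Ilk are uncertain.

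The plakins Dst, Macf1 and Plec are giant linkers between actin and other filaments or membrane anchors, and they held 12 of the 23 muscle peaks of the set that lay in CDS. They were grouped after their values were seen. Dst had 6 CDS peaks, a number that 17 of 3983 genes reached. Of these, 5 lay within 4981 bases of chromosome 1, from 34187972 to 34192952, in the order 64.5, 7.71, 49.8, 23.8 and 3.59 from the 5′ to the 3′ side, and the other one lay upstream at 7.95. Within this short stretch of a gene of 400775 bases, the values thus ran from 3.59 to 64.5. Macf1 had 5 CDS peaks, of which 4 lay within 5009 bases of chromosome 4, from 123471221 to 123476229. Read from the 5′ side on the minus strand, their values were 17.7, 3.44, 6.95 and 26.1, and the peak outside the stretch had a value of 2.59. Every peak inside these stretches held at least 2 listed GGAC sites, and the single peak of each gene outside them held none.

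Plec had 1 muscle peak, which was the longest of all 5412. It ran on chromosome 15 from 76170974 to 76182912 in 3 exon blocks with 10796 exonic bases, at a fold enrichment of 29.3, and 52 GGAC sites were listed for it, 50 of them inside the exon blocks. In C2C12, Plec had 5 coding exon peaks and a 3′UTR peak, which together covered 9205 bases, the second highest covered length of 3970 genes. Dst had a single coding exon peak of 244 bases in C2C12, and all 3 C2C12 peaks of Macf1 were placed in introns of the transcript the list used. The C2C12 positions did not lie on the build of the muscle positions, so whether these peaks fall on the same bases was not tested.

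The remaining crosslinkers had lower values. Actn4, a nonmuscle alpha-actinin, had a 3′UTR peak at 14.8 and a 5′UTR peak at 10.6, and Actn1, the other nonmuscle alpha-actinin of the set, a 3′UTR peak at 9.60. Svil, which anchors actin and myosin II to the membrane, had a CDS peak at 12.7 with 6 GGAC sites, Iqgap1, a scaffold of CDC42 and RAC1 signals, 3′UTR peaks at 10 and 7.34, and Lasp1 3′UTR peaks at 7.40 and 2.51. Sptbn1, a spectrin of the membrane skeleton, had CDS peaks at 5.48 and 2.68. Flna, the actin crosslinker filamin A, was the lowest of the group with a 3′UTR peak at 2.72, although 3 coding exon peaks were listed for it in C2C12. The median of the strongest peaks in the 10 listed crosslinkers was 11.4, with Dst the highest at 64.5.

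Myo9b, an unconventional myosin with a RhoGAP domain that lowers RHOA activity, had the strongest peak of all members. Its single muscle peak, in the CDS on chromosome 8 from 71358125 to 71360713, had a fold enrichment of 686 (rank 70 of 5412) over 4 exon blocks with 1680 exonic bases and 16 GGAC sites. That is 9.52 sites per 1000 bases. In C2C12, Myo9b had a coding exon peak and a 3′UTR peak with 1347 bases together. Its paralog Myo9a, with the same domain layout, had 3′UTR peaks at 19.2 and 6.12 in muscle and a coding exon peak in C2C12. Myo5a had a 3′UTR peak at 20.5. Myo10, the motor of filopodia, had 3 peaks in a row at the end of its 3′UTR, at 2.94, 10.3 and 11.6 from the 5′ to the 3′ side, and the last of them held 4 GGAC sites in 300 bases. Myo1c had a 3′UTR peak at 7.65. The lowest was Myh9, the heavy chain of nonmuscle myosin IIA, with a 3′UTR peak at 6.39. In C2C12 the regions of Myh9 were others: of its 8 peaks 5 were placed in introns, 2 in coding exons and 1 in the 5′UTR, each between 202 and 344 bases long, for 2016 bases in all (rank 37 of 3970).

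Of the 12 genes of actin assembly, 4 (33.3%) were listed in muscle, against 16.9% of all protein-coding genes. The median of their 4 strongest peaks was 42.8, in a range from 2.81 to 133. Cdc42ep1, an effector of the small GTPase CDC42, had a CDS peak at 133 between 78849527 and 78850244 of chromosome 15. This peak held 4 GGAC sites, and C2C12 had a coding exon peak of 819 bases. Wasf2, the WAVE subunit through which RAC1 starts branched actin, had 3′UTR peaks at 73.2 and 4.47, the stronger with 4 GGAC sites, and its C2C12 peak was in the 3′UTR as well. Of the formins, which elongate unbranched filaments, Diap1 and Fmnl2 were listed, both in muscle alone. Diap1, which the annotation now names Diaph1, had a CDS peak at 12.3 and 3′UTR peaks at 7.2 and 2.13, and Fmnl2, with a single 3′UTR peak at 2.81, had the lowest strongest peak of the role. Vasp, which elongates filaments at the leading edge, and Limk2, a kinase of cofilin, were listed in C2C12 alone. Ezr, which encodes ezrin, had a 3′UTR peak at 2.95 in muscle.

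By region, 34 of the 62 muscle peaks (54.8%, 95% Wilson interval 42.5 to 66.6, covering counting error only) were annotated to the 3′UTR, against 47.9% of the other 5350 peaks. The interval takes the peaks as independent, although 15 of the 33 genes had more than 1, so it is too narrow if peaks of a gene go together. The CDS held 23 (37.1%, against 31.8%) and the 5′UTR 2 (3.23%, against 5.16%). The 3 peaks annotated only as exon (4.84%, against 15.0%) were those of Pxn. Peaks of this class count to neither the 3′UTR nor the CDS. Its larger share in other genes thus lowers their shares in both regions. Of the 20 member peaks at or above the median of all peaks, 11 (55%) were in CDS and 7 (35.0%) in the 3′UTR. The shares of other genes' peaks at this level were 39.9% and 41.2%. Many of the 11 came from the plakins: Dst at 64.5, 49.8 and 23.8, Macf1 at 26.1 and 17.7, and Plec at 29.3. The CDS share of the stronger peaks thus rests largely on these genes, whose neighbouring peaks were counted singly. The median fold enrichment was 6.77 for the 3′UTR peaks of the members, against 10 for those of other genes, and 12.7 for their CDS peaks, against 26.9.

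GGAC sites were listed in 44 of the 62 peaks (71.0%, 95% Wilson interval 58.7 to 80.8, covering counting error only), next to 70.6% of the peaks of other genes. This interval too takes peaks of the same gene as independent. All 20 member peaks in the stronger part of the table, from its median fold enrichment upwards, held a site, and 24 of the 42 weaker ones (57.1%) did. In other genes these shares were 85.7% and 55.2%. Peaks with a site had a median fold enrichment of 11.1 and those without one 3.58, but they were also longer, with medians of 450.5 and 180.5 exonic bases. Per 1000 exonic bases the members' peaks had 4.68 sites and those of other genes 4.33. This density counts the 190 of 202 listed member sites that fell inside the exon blocks. The other 12 were those of the Tns1 CDS peak and of Plec that fell between blocks.

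**Figure D4:**
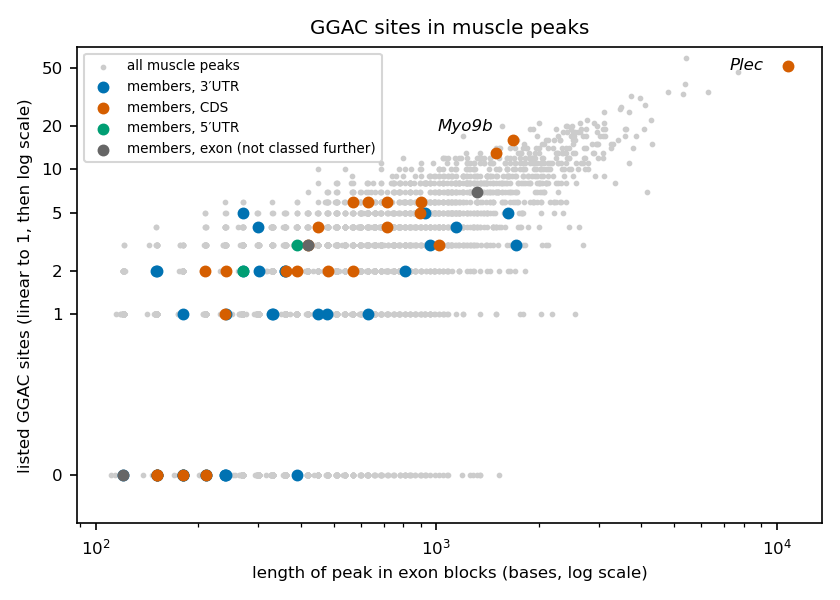
Each point is 1 muscle peak, with its length in exon blocks in bases (x axis, log scale) and the number of GGAC sites listed for it (y axis, linear to 1 and logarithmic from there). Grey points are all muscle peaks and coloured points those of the adhesion and cytoskeleton genes by region. The number of sites grows with length, from 0 in peaks of 120 bases to 52 listed for Plec with 10796 bases, and Myo9b had 16 sites in 1680 bases. Listed sites between exon blocks are counted too: 50 of 52 lay inside the blocks in Plec, and 3 of 13 in the Tns1 CDS peak.

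The 35 members listed in C2C12 had 68 of 5433 peaks. The covered length per gene had a median of 441 bases, against 341 over all listed genes, and 15 members (42.9%) had more than 1 peak, against 25.8%. Neither comparison was matched for gene length. By region, 31 peaks (45.6%) were in coding exons, against 52.7% of the peaks of other genes, 15 (22.1%) in the 3′UTR, against 25.9%, and 13 (19.1%) in introns, against 12.3%. With the longest peak of each gene alone, the 3′UTR share lay above that of other genes, at 34.3% (12 of 35) against 28.1%. Of the intronic peaks 8 came from Myh9 and Macf1. The 5′UTR held 9 (13.2%), against 6.21%. Members without another listed region in C2C12 included Itgb1, Vasp, Vcl, Actn1 and Actn4, each with a single 5′UTR peak. Other genes with 3 C2C12 peaks were Bcar1, with 2 coding exon peaks and an intronic one, Flna, Itgb5, Macf1, Myo10 and Tns1.

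The 9 C2C12 peaks in 5′UTRs lay close to the transcription start. The list gives 7 bases for Myh9, 14 for Vcl, 42 for Actn4, 45 for Itgb5, 74 for Vasp, 137 for Itga3, 152 for Itgb1 and 194 for Actn1. Cdc42ep1 was the exception at 4661 bases. Thus 8 of 9 were under 200 bases, a limit chosen after these values were seen, against 162 of 333 (48.6%) for other genes. MeRIP-Seq antibodies also bind the methylated adenosine m6Am that can follow the cap, and m6A and m6Am cannot be told apart in these data. The letters of 2 of the start regions are shown. They were the only ones found among these 9 genes with GGAC in the first 50 bases, searched on the transcribed strand. They are RefSeq sequence of GRCm38.p6, read 5′ to 3′ with GGAC in capitals, Vcl at chr14:20929408-20929431 and Cdc42ep1 at chr15:78842663-78842686, both on the plus strand.
Vcl: agggaagcccGGACtctagtcgcc
Cdc42ep1: ggtagcgctgGGACgcgccgccgc
In Vcl the motif began at base 21 of the transcript, and in Cdc42ep1 at base 27. The Cdc42ep1 peak lay 4661 bases from the start, so the motif shown for this gene does not lie at its peak. The 2 of 9 genes (22.2%) are near the background, as the same 4 letters occurred in the first 50 bases of 18.9% of all 32851 annotated start windows. Over the 47 of 59 members that had a window, the motif occurred in 20 of 61 windows (32.8%). Members without a window could not be searched. In muscle, the 5′UTR peak of Itgav held listed GGAC sites at 154, 290 and 296 bases from the annotated start and that of Actn4 at 118 and 156, so none of these fell into the first 50 bases.

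In 14 of the 24 genes listed in both tables (58.3%) at least 1 region, 5′UTR, coding sequence or 3′UTR, was shared between muscle and C2C12. Over other genes in both tables the share was 61.4%. Both tables placed peaks in coding sequence for Itgb5, Tns1, Tns2, Myo9b, Dst, Plec, Sptbn1, Svil and Cdc42ep1, and in the 3′UTR for Itga6, Tns1, Tns3, Wasf2 and Iqgap1. Actn4 had a 5′UTR peak in both. In the other 10, no region of the same name was listed in both: Flna, Myo9a, Myo10 and Ezr had 3′UTR peaks in muscle and coding exon peaks in C2C12, Vcl and Actn1 had a 3′UTR peak in muscle and a 5′UTR peak in C2C12, and Itga1, Macf1, Myh9 and Pxn made up the rest. For Pxn this cannot be read as a difference, since its muscle peaks were not divided into CDS and UTR. The tables were annotated on different gene models, so a region is compared here by name and not by position.

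**Figure D5:**
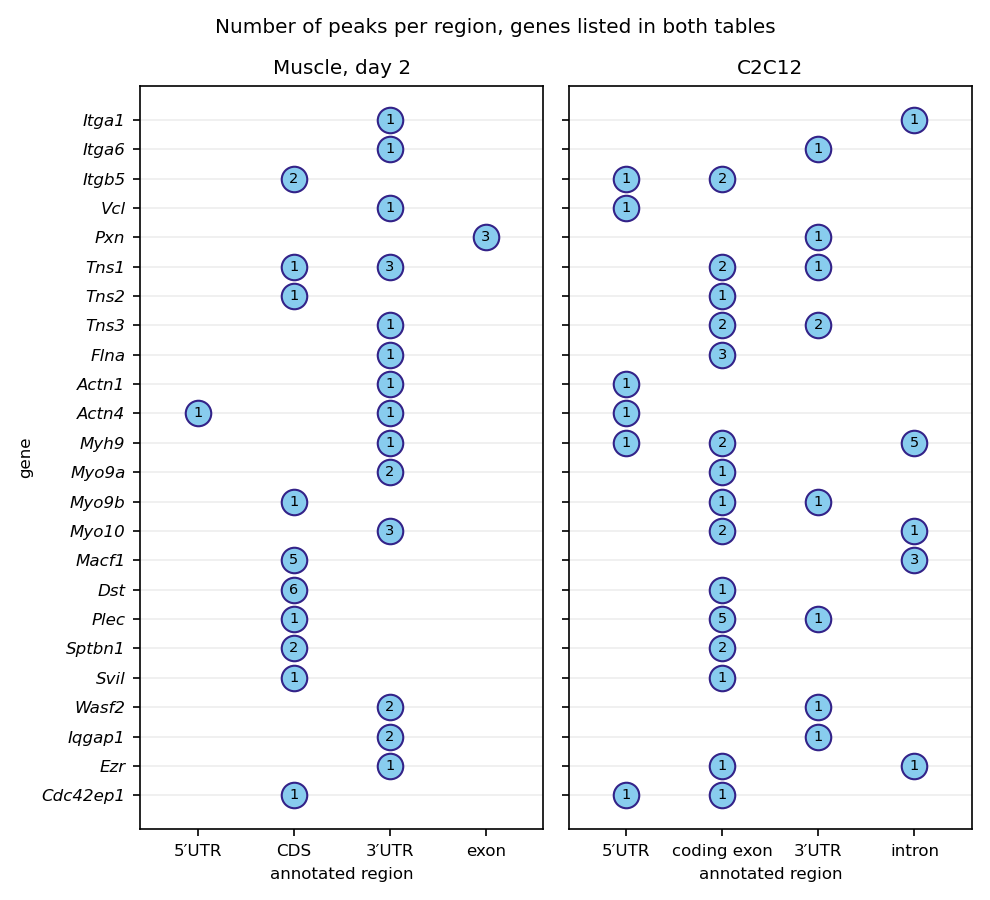
For the 24 genes listed in both tables (y axis), circles give the number of peaks in each annotated region (x axis) in muscle (left) and in C2C12 (right). Plec had 5 coding exon peaks in C2C12 and 1 CDS peak in muscle, and Myh9 had 5 intronic peaks in C2C12 and 1 3′UTR peak in muscle.

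Other genes of the pathway were counted from a wider list of 122 names, of which 121 are in the annotation. They include further integrins, kindlins, actins, the ARP2/3 complex, cofilins and contractile light chains. Of these, 43 (35.5%) were listed in muscle, against 16.9% of all protein-coding genes, and 41 (33.9%) in C2C12, against 17.6%. Both tables held 16 of them. The median of their strongest muscle peaks was 8.29, against 19.3 over all listed genes. Those at or above the upper quartile of fold enrichment included Arhgap35, which encodes a RhoGAP, with a 3′UTR peak at 698, Cttnbp2nl, whose product binds cortactin, with a CDS peak at 161, and Synpo, an actin-associated protein, with a CDS peak at 117. These 3 genes were also listed in C2C12.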

How the data were processed

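m6A MeRIP-Seq was analysed for 4 muscle libraries and 3 C2C12 libraries, grouped by the sample labels. The authors aligned the reads, called peaks and deposited the peaks of muscle and those of C2C12 as separate lists. The submitters' processing notes name TopHat, MACS2 and mm10 without roles or versions. For each muscle peak the authors deposited the ratio of IP to input, its fold enrichment, and a p-value. The table's columns of the authors' comparison of the genotypes, a log2 fold with its p and FDR, were not used. Columns of single samples left out numbered 0.

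Muscle genes were matched to RefSeq (GRCm38.p6) by symbol or older symbol, 3811 of 3983. C2C12 genes were matched first by their RefSeq transcript and failing that by symbol or older symbol, 3967 of 3970. C2C12 Tns2 is listed under the older symbol Tenc1. All 62 muscle peaks of the members lay inside their gene on GRCm38, but 13 of 68 in C2C12 (19.1%) did, so C2C12 positions are not given. Each gene was represented by its strongest peak. Shares and medians were computed in scripts tested on simulated data (numpy 2.4.6, scipy 1.17.1 and pandas 2.3.3 under Python 3.11.15) and plotted using matplotlib 3.10.9. Exon blocks gave peak length. Sequence windows around the muscle peaks were not analysed here.

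The members, lists, tests and naming rule were chosen with earlier results of these data known. Values are given for members at or above the upper quartile of fold enrichment of all genes, for those with 3 or more peaks and for the highest and lowest of each role, and more briefly for the others. The limit of 200 bases, the plakin group, the start windows and the counts without Plec or with all listed sites were chosen after seeing the data. A gene of the wider list that the naming rule selects is not reported here.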

Additional observations from a re-analysis of the deposited data

How the results depend on the processing

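No paired analysis was possible because each muscle group has 1 library and neither table holds values per library. For the same reason no library could be left out. Of 30 alternative values over 14 results, 24 stayed and 6 moved. To stay, a share with a 95% interval had to lie inside it, and any other value within 1.5 times the reported one. The intervals take peaks of the same gene as independent. With the weaker muscle peaks left out, below the table's median fold enrichment, 16 genes were listed in muscle and 13 in both tables, the 3′UTR share fell to 35.0% and the GGAC share rose to 100%. Fewer peaks entered these values by construction. With every member peak taken singly, the median fold enrichment was 7.53. With the longest C2C12 peak of each gene, the 3′UTR share was 34.3%, and the cause was not tested. Without Plec, GGAC density was 4.69 sites per 1000 bases. With all listed sites, in exon blocks or not, it was 4.97. Both alternatives were chosen after seeing the data. Depth is unknown, so no limit of detection can be given.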
